A study of Homo sapiens with 48 samples.

Results

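The collagen chain genes are the 44 genes, of 28 collagen types, whose symbol in the expression table was COL, a number, A and a number, out of 20241 genes in all. The members were chosen by symbol alone. Of the 44, 25 genes of 16 types were above 1 CPM, a read count scaled to the size of its library, in at least 3 of the 9 libraries and were tested, 2 (COL10A1 and COL11A2) were above 1 CPM in 1 or 2 libraries, and 17 were listed at 0 in every library.

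Each collagen is a triple helix of 3 chains, made either of copies of 1 chain or of chains from several genes, so that a gene encodes a chain and not a whole collagen. Fibrillar collagens form the tensile fibrils of stroma, type IV forms the sheet of the basement membrane, type VI forms beaded filaments around cells, type VII anchors epithelium to stroma, and the fibril-associated (FACIT) collagens sit on fibril surfaces. In pancreatic carcinoma most fibrillar collagen of the tumour is made by stromal fibroblasts, while carcinoma cells express some chains themselves.

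PSN1, a human pancreatic cancer cell line, was profiled by RNAseq in 3 states with 3 libraries each. Parental cells carried the label WT, received no treatment and were taken at Day 0. TalaR-M cells had acquired resistance by growth in rising amounts of Talazoparib, an inhibitor that also traps PARP enzymes on DNA, and were kept in 50 nM of the drug, with 4 months given as the time. TalaR-DF cells were the same resistant population grown for weeks in medium without drug, labelled as untreated at Day 0. All groups shared RPMI1640 medium with serum. The sources used here do not say whether the resistant population came from 1 clone, nor whether the replicates of a group were separate cultures, so the p-values measure the spread between libraries, which may be technical.

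Expression was given in log2 CPM, and a value of 0 stood for at most 1 CPM, which was between 6.97 and 14.54 reads depending on the library. Reads on genes above 1 CPM numbered between 12213605 and 14973847 in 8 libraries and 8387755 in TalaR-M replicate 2. That library stood apart: its correlation with each other library, across the 10512 genes whose mean exceeded 2 log2 CPM, was 0.708 to 0.780, while the lowest among the other 8 libraries was 0.899. It was lower than the mean of the other TalaR-M replicates for 15 of the 21 tested collagen genes that differed, with a median difference of -0.51 on the log2 scale (range -2.59 to 0.88), against 7484 of 12171 genes and a median of -0.31 over all tested genes that differed. The tested collagen transcripts were also longer and richer in GC than others, with a median of 5612 bases and 59.1% GC against 3417 bases and 48.4% for all tested genes. The part of depth, length and GC in these differences was not tested, and results that rest on this library are given with and without it.

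Which chains were present was uneven. COL6A1, which encodes the alpha 1 chain of type VI collagen, and COL3A1, the only chain of type III collagen, had the highest mean CPM of the 44 in each of the 3 groups. Beside them, COL7A1 (the anchoring fibril chain), COL12A1 (a FACIT chain), COL1A1, COL1A2, COL4A5, COL5A3, COL6A3, COL18A1 and COL27A1 were above 100.0 CPM in at least 1 group. The genes at 0 in all 9 libraries were COL2A1 and COL11A1 of cartilage fibrils, COL4A2, COL4A3 and COL4A4 of basement membranes, COL6A5, COL6A6 and COL9A1, and the FACIT, transmembrane and other genes COL19A1, COL20A1, COL21A1, COL22A1, COL23A1, COL24A1, COL25A1, COL26A1 and COL28A1.

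**Figure D1:**
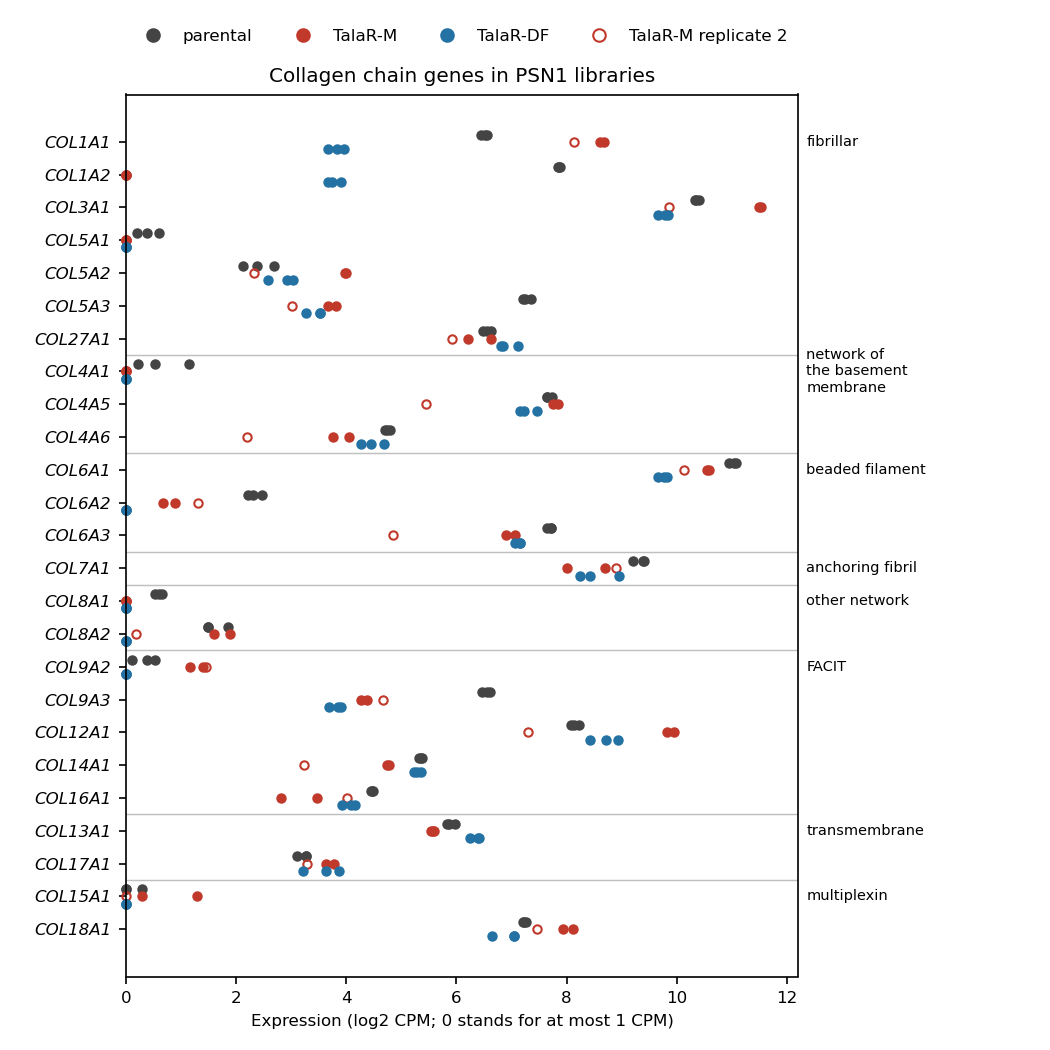
Expression of the 25 tested collagen chain genes in each of the 9 PSN1 libraries (log2 CPM on the x axis, with 0 standing for at most 1 CPM), grouped by collagen class, with TalaR-M replicate 2 as open circles. COL1A2 sits at 0 in all 3 TalaR-M libraries and near 7.86 in the parental ones, while COL1A1 is highest in TalaR-M.

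A gene was called changed at a Benjamini-Hochberg adjusted p under 0.05 in limma, over all 12471 tested genes, with at least a 2-fold change. In TalaR-M against parental cells 7 of the 25 tested collagen genes were called (28%), and 13.3% of all tested genes were. COL1A1 was the 1 gene that rose (5.53% of all tested genes did), and 6 (7.72% of all), COL1A2, COL4A6, COL5A3, COL6A2, COL9A3 and COL16A1, fell. Without TalaR-M replicate 2 there were 9 calls, against 13.9% of all tested genes: COL3A1, COL5A2 and COL12A1 joined the genes that rose and COL4A6 was lost. In TalaR-DF against parental cells 7 of 25 were called, all lower (COL1A1, COL1A2, COL5A3, COL6A1, COL6A2, COL8A2 and COL9A3), where 9.73% of all tested genes were called, 7.49% lower and 2.25% higher. Both comparisons use the same parental libraries and are set side by side only. In TalaR-M against TalaR-DF cells 3 of 25 were called, with COL1A1 and COL9A2 higher and COL1A2 lower in TalaR-M, against 6.93% of all tested genes (5.29% higher and 1.64% lower). Without TalaR-M replicate 2 that count became 8, against 8.36%, since COL3A1, COL5A2, COL8A2, COL12A1 and COL18A1 were then also called higher.

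The median log2 fold change of the 25 genes was -0.59 in TalaR-M against parental, where that of all tested genes was -0.09, and -0.41 in TalaR-DF against parental, where that of all tested genes was 0.01. Between TalaR-M and TalaR-DF the medians were 0 and -0.09, the 0 being that of COL4A1, COL5A1 and COL8A1, at the floor in both groups. Without TalaR-M replicate 2 the medians of the 25 genes and of all tested genes were -0.39 and 0.01 in TalaR-M against parental. In TalaR-M against TalaR-DF they were then 0.30 and -0.02. The libraries of the groups did not overlap for 18 of 25 genes in the first comparison, 21 in the second and 14 in the third, while 49.8%, 68.5% and 40.8% of all tested genes did not overlap. COL4A1, COL5A1 and COL8A1, counted in the 18 and the 21, exceeded 1 CPM in the parental libraries alone. They passed the filter only through those libraries, so their lower place in both resistant groups was fixed by the filter and is no result. RNA was measured in bulk, so fewer cells with a transcript and less of it per cell cannot be told apart.

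The largest differences were in type I collagen, the main fibrillar collagen, whose usual helix joins alpha 1 chains from COL1A1 with an alpha 2 chain from COL1A2. COL1A1 (chr17:50184101-50201632, minus strand, hg38) stood at 6.51, 6.45 and 6.55 log2 CPM in the parental libraries, 8.61, 8.13 and 8.67 in TalaR-M and 3.67, 3.96 and 3.83 in TalaR-DF. The 3 groups did not overlap, with TalaR-M highest and TalaR-DF lowest. In limma, COL1A1 rose 3.91-fold in TalaR-M against parental (log2 fold change 1.97, SE 0.17, adjusted p 8.04e-05) and was 6.42-fold lower in TalaR-DF (log2 fold change -2.68, SE 0.17, adjusted p 1.78e-05). It was 25.1-fold higher in TalaR-M than in TalaR-DF (adjusted p 2.72e-06).

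COL1A2 (chr7:94394895-94431227, plus strand, hg38) followed another order. Its values were 7.86, 7.85 and 7.88 log2 CPM in the parental libraries, 0 in all 3 TalaR-M libraries and 3.90, 3.67 and 3.74 in TalaR-DF. Parental cells were highest, TalaR-DF cells lay between and no TalaR-M library exceeded 1 CPM. Against a floor of 1 CPM, COL1A2 was at least 233-fold lower in TalaR-M than in parental cells (log2 fold change -7.86, SE 0.13, limma adjusted p 2.3e-08) and at least 13.6-fold lower than in TalaR-DF (adjusted p 2.02e-06). In TalaR-DF it was 17.1-fold lower than in parental cells (adjusted p 4.63e-07). All 3 calls of each type I gene held under all 17 alternatives that kept the 2-fold threshold.

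Side by side within a library, COL1A1 minus COL1A2 was -1.36 ± 0.03 on the log2 CPM scale in parental cells (SD, n = 3), at least 8.47 ± 0.30 in TalaR-M and 0.05 ± 0.26 in TalaR-DF. COL1A2 thus exceeded COL1A1 in parental cells, COL1A1 was the only type I chain above 1 CPM in TalaR-M, and the chains were level within their spread in TalaR-DF. Per kb of transcript, the mean log2 CPM of COL1A1 and COL1A2 was 3.94 and 5.52 in parental cells and 1.25 and 1.43 in TalaR-DF. In TalaR-M that of COL1A1 was 5.90.

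**Figure D2:**
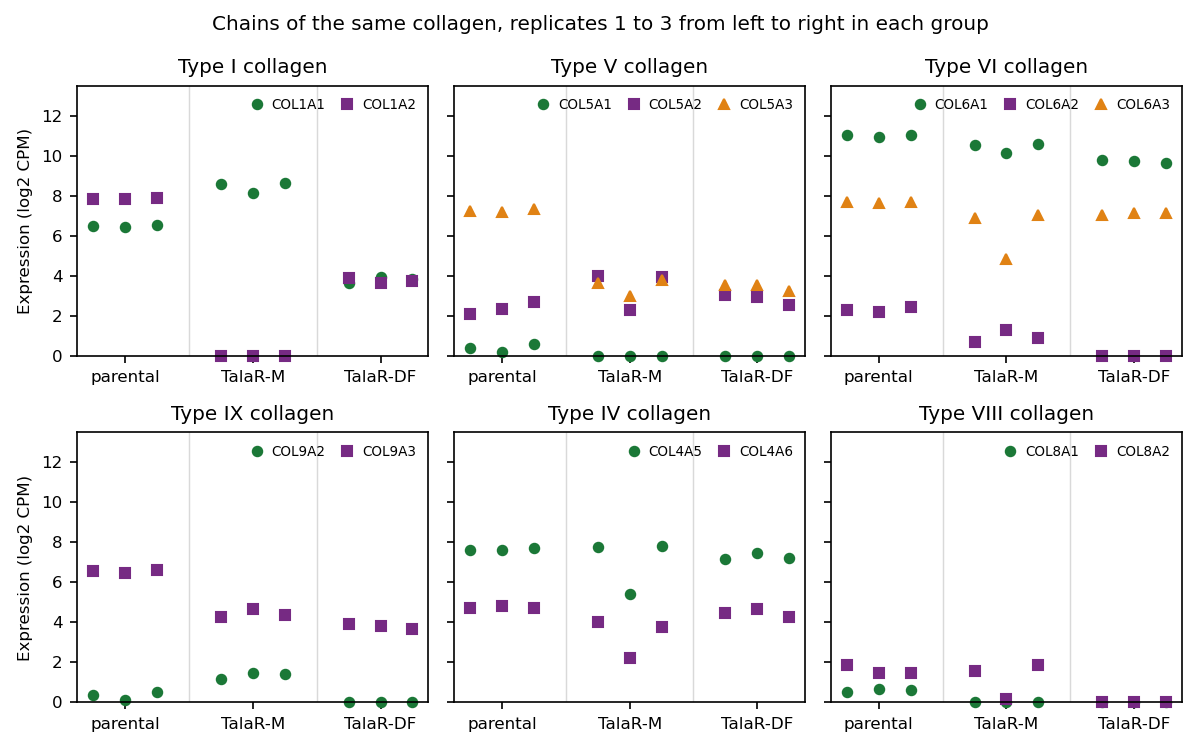
Chains of the same collagen in each library for types I, V, VI, IX, IV and VIII (y axis, log2 CPM; x axis, replicates 1 to 3 of each group from left to right). The order of COL1A1 and COL1A2 turns from parental to TalaR-M cells. COL5A3 drops close to COL5A2 in both resistant groups and stays above it in every TalaR-DF library.

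The other tested fibrillar genes were COL3A1, COL5A1, COL5A2, COL5A3 and COL27A1. Type V collagen regulates the width of type I fibrils, and its chains did not move together. COL5A3 (chr19:9959561-10010504, minus strand, hg38) was at 7.24, 7.20 and 7.35 log2 CPM in parental cells, 3.67, 3.01 and 3.82 in TalaR-M and 3.53, 3.53 and 3.27 in TalaR-DF. Every parental library was far above every resistant library, and the resistant groups overlapped. COL5A3 fell 13.6-fold in TalaR-M (limma log2 fold change -3.77, SE 0.22, adjusted p 8.05e-06) and 14.1-fold in TalaR-DF (-3.82, SE 0.22, adjusted p 1.04e-05), and differed by 0.06 on the log2 scale between them (SE 0.22, adjusted p 0.876), a sign that turned in some alternatives. Both calls held under all 17 alternatives that kept the 2-fold threshold.

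COL5A2, the alpha 2 chain of type V, had 2.12, 2.37 and 2.69 log2 CPM in parental cells, 4.00, 2.32 and 3.97 in TalaR-M and 3.03, 2.93 and 2.57 in TalaR-DF. TalaR-M replicate 2 lay among the parental values and the other TalaR-M replicates above them. The log2 fold change of TalaR-M against parental was 1.03 (SE 0.43, limma adjusted p 0.122) and 1.59 without replicate 2 (adjusted p 1.46e-05). COL5A1, the alpha 1 chain that most type V helices need, was at 0.38, 0.20 and 0.60 log2 CPM in parental cells and at 0 in all 6 resistant libraries. COL5A2 minus COL5A3 went from -4.87 ± 0.23 in parental cells (SD, n = 3) to -0.07 ± 0.54 in TalaR-M and -0.60 ± 0.10 in TalaR-DF.

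COL3A1 encodes the homotrimeric type III collagen of elastic and reticular tissue. Its log2 CPM was 10.33, 10.34 and 10.41 in parental cells, 11.53, 9.85 and 11.50 in TalaR-M and 9.79, 9.84 and 9.66 in TalaR-DF. Again replicate 2 differed from the other TalaR-M replicates, lying just above the TalaR-DF libraries and below the parental ones. Over all libraries the TalaR-M against parental difference was 0.60 (SE 0.41, limma adjusted p 0.308), and without replicate 2 it was 1.16 (adjusted p 3.16e-07). Against TalaR-DF the same gene differed by 1.20 (adjusted p 0.1) and, without replicate 2, by 1.75 (adjusted p 2.38e-08). COL3A1 and COL5A2 lie tail to tail on chromosome 2 with 19151 bases between them, and both were called in TalaR-M against parental when that library was left out, COL5A2 also with the length and GC trend removed (1.43). COL27A1 was not called in any comparison, with means of 6.55, 6.25 and 6.93 log2 CPM in parental, TalaR-M and TalaR-DF cells.

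Of the 6 type IV genes, 3 were tested. COL4A5 and COL4A6 encode the alpha 5 and alpha 6 chains, which join in basement membranes beneath some epithelia. They lie head to head on the X chromosome (COL4A5 at chrX:108439838-108697545, plus strand, and COL4A6 at chrX:108155607-108439497, minus strand, hg38), with 341 bases between their annotated starts. RefSeq promoter windows run from 250 bases before to 50 after a start (GRCh38.p14). Another window of COL4A6, chrX:108438373-108438672, does not overlap that of COL4A5, held no CCAAT box and is not shown. The COL4A5 window and the COL4A6 window nearest to it share 121 bases, chrX:108439588-108439708, and are shown because the shared bases lie between those starts. Capitals mark CCAAT boxes, read as CCAAT or ATTGG, of which 2 lie in the shared bases.
COL4A5, chrX:108439588-108439887, plus strand: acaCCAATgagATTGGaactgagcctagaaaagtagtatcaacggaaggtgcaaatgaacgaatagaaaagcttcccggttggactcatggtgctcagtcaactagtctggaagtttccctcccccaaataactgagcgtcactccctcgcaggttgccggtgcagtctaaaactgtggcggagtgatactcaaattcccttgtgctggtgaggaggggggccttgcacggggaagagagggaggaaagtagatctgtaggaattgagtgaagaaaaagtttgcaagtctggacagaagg
COL4A6, chrX:108439409-108439708, minus strand: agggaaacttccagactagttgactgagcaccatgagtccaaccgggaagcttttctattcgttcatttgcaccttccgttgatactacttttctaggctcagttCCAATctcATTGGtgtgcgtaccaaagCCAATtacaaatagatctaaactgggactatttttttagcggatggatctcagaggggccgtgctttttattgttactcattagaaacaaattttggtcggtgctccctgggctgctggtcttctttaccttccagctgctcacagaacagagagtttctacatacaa

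COL4A6 stood at 4.70, 4.80 and 4.73 log2 CPM in parental cells, 4.04, 2.20 and 3.76 in TalaR-M and 4.45, 4.68 and 4.27 in TalaR-DF. TalaR-M was below both other groups without overlap, and its replicate 2 was lowest. The fall in TalaR-M against parental was 2.66-fold (limma log2 fold change -1.41, SE 0.43, adjusted p 0.046) but shrank to -0.84 without replicate 2, under the 2-fold threshold, and the call held under 5 of 17 alternatives. COL4A5 had 7.64, 7.64 and 7.73 log2 CPM in parental cells, 7.76, 5.44 and 7.84 in TalaR-M and 7.15, 7.47 and 7.22 in TalaR-DF, with the low TalaR-M value in replicate 2. Its TalaR-M against parental difference was -0.66 (SE 0.56, adjusted p 0.409) and turned to 0.13 without that library.

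The distance between the paired genes was widest in TalaR-M. COL4A5 minus COL4A6 was 2.93 ± 0.08 log2 CPM in parental cells (SD, n = 3), 2.81 ± 0.12 in TalaR-DF and 3.68 ± 0.42 in TalaR-M, where all 3 libraries were above those of the other groups. COL4A1, a chain of most basement membranes, was at 0.22, 0.53 and 1.14 log2 CPM in parental cells and at 0 in the 6 resistant libraries, and its usual partner COL4A2 was at 0 in all 9.

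Type VI collagen is assembled from alpha 1, alpha 2 and alpha 3 chains, and the levels of its genes were far apart. COL6A1 (chr21:45981770-46005050, plus strand, hg38) was at 11.07, 10.95 and 11.04 log2 CPM in parental cells, 10.55, 10.13 and 10.59 in TalaR-M and 9.82, 9.77 and 9.66 in TalaR-DF. The groups did not overlap, with parental highest and TalaR-DF lowest. COL6A1 fell 2.41-fold in TalaR-DF (limma log2 fold change -1.27, SE 0.17, adjusted p 0.00116). In TalaR-M the log2 fold change was -0.60 (adjusted p 0.0344), under the 2-fold threshold.

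COL6A2 lies downstream of COL6A1 in the same direction (chr21:46098112-46132848, plus strand, hg38), 93061 bases away. It had 2.31, 2.22 and 2.47 log2 CPM in parental cells, 0.68, 1.30 and 0.89 in TalaR-M and 0 in all 3 TalaR-DF libraries. These groups did not overlap either and kept the order seen for COL6A1. COL6A2 fell 2.60-fold in TalaR-M (limma log2 fold change -1.38, SE 0.17, adjusted p 0.000662) and at least 5.05-fold in TalaR-DF (adjusted p 3.91e-05), and both calls were lost only with a pseudocount of 8 CPM among 16 alternatives. Between TalaR-M and TalaR-DF it differed by 0.96 (adjusted p 0.0089), which passed the 2-fold threshold without TalaR-M replicate 1 (1.10). COL6A3, the large alpha 3 chain, was at 7.71, 7.64 and 7.72 log2 CPM in parental cells, 6.90, 4.84 and 7.07 in TalaR-M and 7.07, 7.16 and 7.15 in TalaR-DF. Its log2 fold change was -1.42 in TalaR-M (SE 0.51, limma adjusted p 0.0808), -0.71 without replicate 2 and, then called, -1.82 without replicate 3, and -0.57 in TalaR-DF (adjusted p 0.556). TalaR-M replicate 2 enters the estimate of spread that all groups share. Without it the TalaR-DF change of COL6A3 was the same, under 2-fold, with a limma adjusted p of 5.95e-06.

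Per kb of transcript, the parental means were 8.95 log2 CPM for COL6A1, 4.29 for COL6A3 and 0.55 for COL6A2. COL6A1 minus COL6A2 in log2 CPM was 8.69 ± 0.10 in parental cells (SD, n = 3), 9.47 ± 0.56 in TalaR-M and at least 9.75 ± 0.09 in TalaR-DF. The direction of its change from parental cells turned when 8 CPM were added to every value, since COL6A2 was at most 5.06 CPM on average.

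The RefSeq promoter windows of COL5A3 and COL6A2 are shown because these genes were called lower in both resistant groups and are among the members with a window in the table. Capitals mark GC boxes (GGGCGG or CCGCCC) and CCAAT boxes, and no match overlaps another.
COL5A3, chr19:10010455-10010754, minus strand: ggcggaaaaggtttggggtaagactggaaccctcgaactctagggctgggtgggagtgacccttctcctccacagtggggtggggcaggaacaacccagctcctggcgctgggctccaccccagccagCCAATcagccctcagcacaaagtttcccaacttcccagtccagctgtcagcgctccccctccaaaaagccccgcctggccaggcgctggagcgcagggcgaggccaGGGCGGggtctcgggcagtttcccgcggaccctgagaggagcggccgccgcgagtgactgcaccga
COL6A2, chr21:46097862-46098161, plus strand: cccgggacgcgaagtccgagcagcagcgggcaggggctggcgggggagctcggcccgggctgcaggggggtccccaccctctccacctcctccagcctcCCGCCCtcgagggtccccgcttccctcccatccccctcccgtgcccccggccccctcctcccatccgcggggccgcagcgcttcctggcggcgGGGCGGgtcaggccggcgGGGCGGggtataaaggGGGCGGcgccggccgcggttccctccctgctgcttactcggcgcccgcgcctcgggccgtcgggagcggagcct

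The COL6A2 window held 4 GC boxes and the COL5A3 window 1 GC box and 1 CCAAT box. Among 35116 RefSeq promoter windows of the same length, 45.0% held a GC box, 34.6% a CCAAT box and 20.6% the E-box CACCTG or CAGGTG, letters that SNAI2 is known to bind. Of the 44 windows of 32 collagen genes, 24, 14 and 5 did. None of the 4 windows printed held that E-box, which says only that these letters are not in them.

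FACIT genes gave the clearest change outside types I, V and VI. Type IX collagen, which covers the surface of cartilage fibrils, is built from the products of COL9A1, COL9A2 and COL9A3. COL9A3 had 6.56, 6.47 and 6.60 log2 CPM in parental cells, 4.27, 4.67 and 4.37 in TalaR-M and 3.91, 3.84 and 3.68 in TalaR-DF. The groups did not overlap. COL9A3 fell 4.29-fold in TalaR-M (limma log2 fold change -2.10, SE 0.15, adjusted p 2.73e-05) and 6.65-fold in TalaR-DF (-2.73, SE 0.15, adjusted p 7.96e-06), under all 17 alternatives that kept the 2-fold threshold.

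COL9A2 moved otherwise at a low level, with 0.38, 0.11 and 0.52 log2 CPM in parental cells, 1.16, 1.45 and 1.40 in TalaR-M and 0 in all TalaR-DF libraries. TalaR-M was highest without overlap. TalaR-DF cells had at least 2.53-fold less of it than TalaR-M cells (TalaR-M against TalaR-DF log2 fold change 1.34, SE 0.14, limma adjusted p 0.000614), a call lost with a pseudocount of 8 CPM. Against parental cells its log2 fold change of 0.998 (adjusted p 0.00137) fell just short of the 2-fold threshold. It passed the threshold without parental replicate 1 (1.02), parental replicate 3 (1.09) or TalaR-M replicate 1 (1.09), and with median ratio scaling (1.11). COL9A2 minus COL9A3 was -6.20 ± 0.14 log2 CPM in parental cells (SD, n = 3), -3.10 ± 0.13 in TalaR-M and at most -3.81 ± 0.12 in TalaR-DF.

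COL16A1, a FACIT chain found near basement membranes, was at 4.47, 4.48 and 4.44 log2 CPM in parental cells, 2.82, 4.02 and 3.47 in TalaR-M and 4.08, 4.16 and 3.92 in TalaR-DF. Every resistant library lay below the parental ones, and the resistant groups overlapped. The fall in TalaR-M was 2.03-fold (limma log2 fold change -1.02, SE 0.27, adjusted p 0.0299). That call held under 4 of 17 alternatives and under only 1 of the 9 left-out libraries, TalaR-M replicate 2 (-1.31, adjusted p 2.77e-05).

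COL12A1, which bridges fibrils and other matrix, had 8.22, 8.14 and 8.08 log2 CPM in parental cells, 9.83, 7.30 and 9.95 in TalaR-M and 8.42, 8.94 and 8.71 in TalaR-DF. The 2 deeper TalaR-M libraries were the highest of the 9 and replicate 2 the lowest. The log2 fold change of TalaR-M against parental was 0.88 (SE 0.62, adjusted p 0.327) with it and 1.74 (adjusted p 2e-07) without it. COL14A1 was not called, with a log2 fold change of -1.11 in TalaR-M against parental (SE 0.37, adjusted p 0.065; -0.60 without replicate 2) and calls when TalaR-M replicate 1 (-1.36) or replicate 3 (-1.38) was left out.

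The 2 tested chains of type VIII collagen, a hexagonal network of vessel wall and cornea, were low. COL8A2 stood at 1.85, 1.49 and 1.49 log2 CPM in parental cells, 1.59, 0.18 and 1.89 in TalaR-M and 0 in all TalaR-DF libraries. The parental and TalaR-M libraries overlapped, and TalaR-DF lay below both. COL8A2 was at least 3.05-fold lower in TalaR-DF than in parental cells (log2 fold change -1.61, SE 0.39, limma adjusted p 0.0228), under 8 of 16 alternatives. The call was lost when any 1 of the parental or TalaR-DF libraries was left out, though the fold change moved little (-1.67 to -1.49). Without TalaR-M replicate 2, which enters the shared estimate of spread, the call held (-1.61, limma adjusted p 1.71e-06). COL8A1 was between 0.52 and 0.66 log2 CPM in parental cells and at 0 in the others.

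COL7A1 was at 9.21, 9.41 and 9.38 log2 CPM in parental cells, 8.01, 8.90 and 8.70 in TalaR-M and 8.43, 8.95 and 8.24 in TalaR-DF. All resistant libraries were below the parental ones, with log2 fold changes of -0.80 in TalaR-M and -0.79 in TalaR-DF that did not pass (limma adjusted p 0.0656 and 0.0803). Without TalaR-M replicate 2 they were -0.98 and -0.79 (limma adjusted p 0.00159 and 0.00276), under the 2-fold threshold. Of the transmembrane chains, COL13A1, a collagen of focal adhesions, had means of 5.89, 5.57 and 6.35 log2 CPM in parental, TalaR-M and TalaR-DF cells, and its difference of -0.77 between TalaR-M and TalaR-DF had an adjusted p of 0.00387 but was under 2-fold. COL17A1, the hemidesmosome collagen, had means of 3.21, 3.56 and 3.57 log2 CPM and was not called.

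Of the multiplexins, whose cores carry heparan sulfate or related chains, COL18A1, the source of endostatin, had means of 7.23, 7.83 and 6.90 log2 CPM in parental, TalaR-M and TalaR-DF cells. Its difference between TalaR-M and TalaR-DF was 0.93 (SE 0.19, limma adjusted p 0.0178) and 1.11 without TalaR-M replicate 2, past the 2-fold threshold (adjusted p 7.38e-06). COL15A1 was above 1 CPM in 1 parental and 2 TalaR-M libraries, and no comparison called it.

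**Figure D3:**
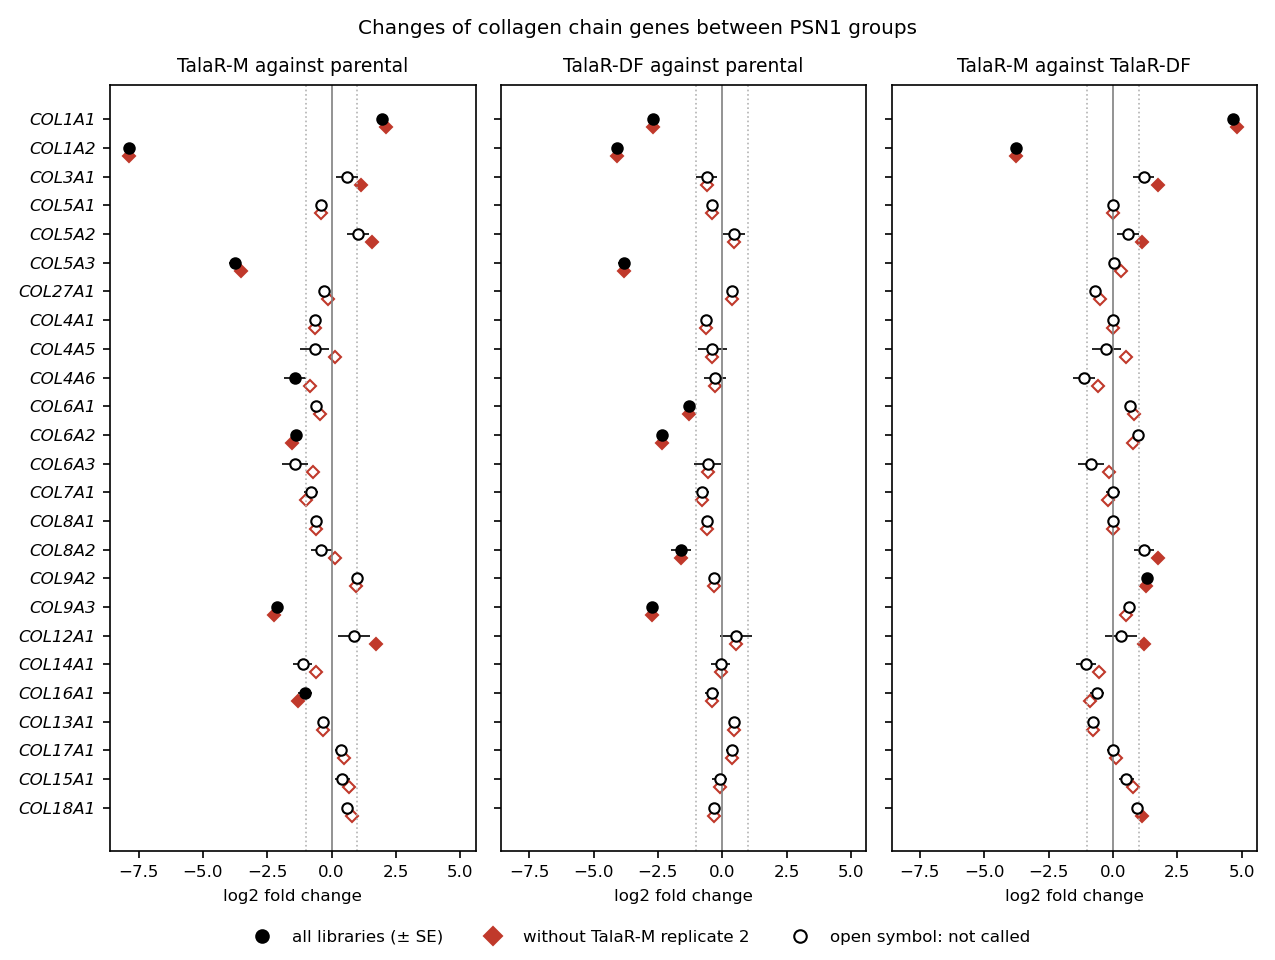
Log2 fold changes of the 25 tested collagen chain genes in the 3 comparisons (x axis, log2 scale; bars, SE), over all libraries (circles) and without TalaR-M replicate 2 (diamonds), with filled symbols for calls and dotted lines at 2-fold. COL1A2 lies farthest to the left in each panel, and for COL3A1, COL5A2 and COL12A1 in the first panel the diamond is filled and the circle open.

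Over the 8 pairs of chains with neighbouring numbers in the same collagen, the difference between chains was compared between groups in 24 exact two-sided permutation tests over libraries. The smallest p that 3 against 3 libraries can give is 0.1, and no adjusted p was under 0.133. The libraries did not overlap in 18 of the 24. The largest moves from parental to TalaR-M were at least 9.83 for COL1A1 minus COL1A2, 4.80 for COL5A2 minus COL5A3 and 3.10 for COL9A2 minus COL9A3, each wider than the SD within groups (0.21, 0.42 and 0.14), and from parental to TalaR-DF the same pairs moved by 1.41, 4.27 and at most 2.39. By contrast COL6A2 minus COL6A3 moved by 0.04 from parental to TalaR-M (SD 1.09) and by -0.84 without TalaR-M replicate 2.

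Summed over the 44 genes, collagen transcripts made up 5727, 5623 and 5842 CPM in parental libraries, 6842, 3397 and 7168 in TalaR-M and 3237, 3619 and 3055 in TalaR-DF. All TalaR-DF libraries were below the parental ones, the ratio of the means being 0.576, and TalaR-M lay on both sides of the parental range, with replicate 2 below it and a mean of 7005 CPM without that library. In exact two-sided permutation tests p was 1 for TalaR-M against parental, 0.1, the smallest possible, for TalaR-DF against parental, and 0.2 between the resistant groups (adjusted over these 3, 1, 0.3 and 0.3).

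The make-up of the sum also differed. COL6A1 gave 35.2 to 37.6% in parental cells and COL3A1 22.5 to 23.2%. In TalaR-M replicates 1 and 3 COL3A1 led with 43.4% and 40.4%, and COL12A1 gave 13.3% and 13.8%, while in replicate 2 COL6A1 led with 32.9%. Type I chains gave 5.63 to 5.68% in parental libraries, 5.68 to 8.23% in TalaR-M and 0.782 to 0.902% in TalaR-DF, so that in TalaR-M their share came from COL1A1 alone.

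**Figure D4:**
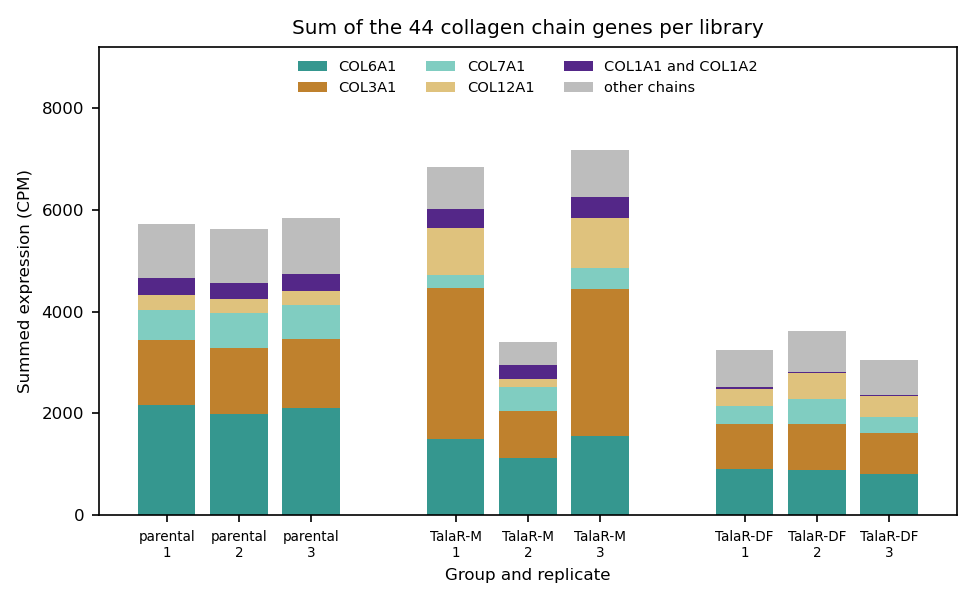
Summed expression of the 44 collagen chain genes in each library (y axis, CPM; bars stacked by gene). The 3 TalaR-DF bars are lower than the parental bars, and the TalaR-M bars stand at 6842 and 7168 CPM for replicates 1 and 3 and at 3397 CPM for replicate 2.

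Genes that modify, fold, secrete, process, bind or organise collagen were read from 5 lists. Of all tested genes 13.3% were called in TalaR-M against parental, 9.73% in TalaR-DF against parental and 6.93% between the resistant groups. The lists are short, and whether their counts differ from these shares was not tested. Of 14 tested modifying enzymes, LEPREL1 (P3H2) rose and LEPREL2 (P3H3) fell against parental cells in both TalaR-M and TalaR-DF. These are prolyl 3-hydroxylases. LEPREL1 had log2 fold changes of 1.29 (limma adjusted p 0.00135) and 1.02 (adjusted p 0.00528), and LEPREL2 of -2.84 (adjusted p 0.00598) and -3.34 (adjusted p 0.00322). Without TalaR-M replicate 2 the first of these LEPREL2 values was -3.56 (adjusted p 7.3e-09). None of the 14 was called between the resistant groups.

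Of 9 tested folding and secretion genes, CREB3L1, a membrane-bound transcription factor known to act on type I collagen genes, was at 5.66, 5.49 and 5.55 log2 CPM in parental cells, 6.47, 5.86 and 6.32 in TalaR-M and 4.53, 4.18 and 4.33 in TalaR-DF. Its groups did not overlap and stood in the same order as those of COL1A1 but not of COL1A2, which was at 0 in TalaR-M. In TalaR-M against parental its log2 fold change was 0.65 (SE 0.18, limma adjusted p 0.0362), under the 2-fold threshold. A part of CREB3L1 in either gene's levels was not tested. CREB3L1 was lower in TalaR-DF than in parental cells (limma log2 fold change -1.22, SE 0.18, adjusted p 0.00251) and higher in TalaR-M than in TalaR-DF (1.87, SE 0.18, adjusted p 0.000467). MIA3, which loads procollagen for export, was called lower in TalaR-M against parental (-1.20, adjusted p 0.043) and not without TalaR-M replicate 2 (-0.71).

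Among 9 tested processing and cross-linking genes, PCOLCE, an enhancer of procollagen cleavage, and the cross-linking enzyme LOX fell in both resistant groups against parental cells. PCOLCE had log2 fold changes of -2.08 in TalaR-M (limma adjusted p 0.00315) and -2.74 in TalaR-DF (adjusted p 0.000864). LOX had -1.66 (adjusted p 0.00895) and -1.53 (adjusted p 0.0155). LOXL3 rose in TalaR-M against parental (1.09, adjusted p 0.000495), LOXL4 fell in TalaR-DF (-2.26, adjusted p 0.000207), and LOXL4 and LOXL1 were higher in TalaR-M than in TalaR-DF. LOXL1 was near the floor, at 1.28 to 1.70 log2 CPM in TalaR-M and 0 in TalaR-DF.

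Of 10 tested collagen receptors, ITGA2 and GPR56 (ADGRG1) fell in TalaR-M against parental, ITGA1, MRC2 and GPR56 fell in TalaR-DF, and ITGA10, ITGA11 and MRC2 were higher in TalaR-M than in TalaR-DF. GPR56, an adhesion receptor that binds type III collagen, had log2 fold changes of -1.95 (limma adjusted p 8.54e-05) and -2.39 (adjusted p 3.36e-05). ITGA2, the alpha 2 integrin chain, had -2.41 in TalaR-M (adjusted p 0.0344) and -1.46 without replicate 2 (adjusted p 2.03e-08).

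Of 8 tested fibril-associated matrix genes, DCN and SPARC rose and LUM and BGN fell in TalaR-M against parental, and POSTN rose and LUM and BGN fell in TalaR-DF. Between the resistant groups, DCN and SPARC were called higher and LUM and POSTN lower in TalaR-M. DCN and BGN were near the floor. DCN was at 1.45 to 1.73 log2 CPM in TalaR-M and 0 in the other groups, and BGN at 1.36 to 1.73 in parental cells and 0 in all resistant libraries. The collagen-binding SPARC was at 7.64, 7.58 and 7.60 log2 CPM in parental cells, 9.56, 8.84 and 9.36 in TalaR-M and 7.74, 7.62 and 7.74 in TalaR-DF, with a log2 fold change of 1.65 in TalaR-M (limma adjusted p 0.000393). POSTN, periostin, was 3.67 log2 units higher in TalaR-DF than in parental cells (adjusted p 0.00216). In TalaR-M against parental its difference was 0.49 (limma adjusted p 0.524) and 1.24 without replicate 2 (adjusted p 3.37e-07). LUM, the fibril-spacing lumican, had log2 fold changes of -3.50 in TalaR-M (adjusted p 0.000144) and -1.78 in TalaR-DF (adjusted p 0.00704).

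Without TalaR-M replicate 2, the genes called higher in TalaR-M against parental went from 0 to 2 among receptors and from 2 to 3 among fibril-associated genes, and those called higher than in TalaR-DF from 3 to 4 and from 2 to 4, and from 2 to 3 among processing and cross-linking genes. In TalaR-DF against parental, which shares the estimate of spread, receptors called higher went from 0 to 1 and fibril-associated genes called lower from 2 to 3. The added fibril-associated gene was FN1 (-1.54, limma adjusted p 4.25e-07 without that library and 0.132 with it). FN1 stood at 12.44, 12.43 and 12.38 log2 CPM in parental cells and 10.69, 11.08 and 10.85 in TalaR-DF. In TalaR-M it was at 11.99, 9.52 and 12.11. The share of all tested genes called in either direction also went up, from 13.3% to 13.9% in TalaR-M against parental and from 6.93% to 8.36% in TalaR-M against TalaR-DF.

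The label of a pancreatic cancer line was checked on 6 epithelial markers, of which 5 were above 1 CPM in all 9 libraries and CDH1 was at 0 in each. Their summed level was 1078 to 1132 CPM in parental cells, 1701 to 5773 in TalaR-M, highest in replicate 2, and 949 to 1085 in TalaR-DF. Of 6 fibroblast markers, FAP and THY1 were at 0 in all libraries and DCN exceeded 1 CPM in TalaR-M only. PDGFRA and LUM were lowest in TalaR-M, while PDGFRB was highest in parental cells and overlapped between the resistant groups. The sum of the 6 was 176 to 185 CPM in parental cells, 23.8 to 50.8 in TalaR-M and 73.9 to 81.7 in TalaR-DF. Endothelial markers summed to 28.8 to 30.9, 5.91 to 9.06 and 2.92 to 3.24 CPM in the same order of groups, with VWF at 0 in all libraries. The part of other cells in the collagen values was not tested.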

How the data were processed

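The 9 PSN1 RNAseq libraries (3 each of the parental, TalaR-M and TalaR-DF groups) were used. From stranded poly(A) libraries read as pairs of 150 bases the authors deposited log2 values, which are log2 CPM with a prior count of 1 scaled to library size and with values under 0 set to 0. The submitters' processing notes name hg38; the aligner, the counter and the annotation are not given in the sources used here. The column names speak of maintained and withdrawn cells, here read as TalaR-M and as TalaR-DF. Other cell lines and short treatments were not analysed here.

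Group means of the log2 values were fitted in 1 model with limma 3.58.1 (R 4.3.3) and a trend of variance on level. Testing was limited to genes that exceeded 1 CPM in 3 libraries or more, and calls needed a Benjamini-Hochberg adjusted p under 0.05 over all genes tested and at least 2-fold. Where a group was at 0, the fold is a lower bound taken at 1 CPM. No count test was run, since reads at or below 1 CPM cannot be recovered. Differences between chains and sums were compared with exact two-sided permutation tests. The alternatives were a pseudocount of 8 CPM, no filter, a minimum of 5 CPM, median ratio scaling, a replicate block, 2 groups only, no mean-variance trend, no fold threshold, removal of the length and GC trend, and leaving out each library. Genes, lengths and neighbours came from GENCODE 44 and promoters from RefSeq (GRCh38.p14); lists of collagen-related genes were matched by symbol, 6 of them by an older one. The collagen genes, the lists and the tests were chosen with earlier results of these data known. By rule, values in every library are given for each member called in at least 1 comparison, and list genes are named where called. COL3A1, COL4A5, COL5A1, COL5A2, COL6A3, COL7A1, COL12A1 and COL4A1 were added as partner chains or after their values were seen.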

Additional observations from a re-analysis of the deposited data

How the results depend on the processing

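TalaR-M replicate 2 was the main limit: it had the fewest reads, and 1 CPM was the floor of every value. COL1A1, COL1A2, COL5A3 and COL9A3 kept every call against parental cells under all 17 alternatives with a 2-fold threshold, and COL6A1 kept its call in TalaR-DF. Over the single-gene changes and alternatives, 1188 values kept direction and side of the threshold, 36 lost a call, 36 gained one and 18 turned in sign. The causes were not tested.

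In TalaR-M against parental, the 7 calls became 4 (3 lower) with a pseudocount of 8 CPM, 11 (2 higher) without the fold threshold, and 5 to 9 when a library was left out. The 1 gene called higher became 2 with median ratio scaling, 3 with the length and GC trend removed, and 1 to 4 when a library was left out: 2 without parental replicate 1 or 3 or TalaR-M replicate 1, and 4 without TalaR-M replicate 2. In TalaR-DF against parental, 1 gene was called higher without the fold threshold (COL13A1, 0.46). In TalaR-M against TalaR-DF the 3 calls became 7 (6 higher) with median ratio scaling, 5 (4 higher) with the length and GC trend removed, 8 (6 higher, 2 lower) without the fold threshold, and 3 to 8 (2 to 7 higher) when a library was left out, and 1 was higher with a pseudocount of 8 CPM or a minimum of 5 CPM. Median ratio scaling took out a median deviation of -0.33 on the log2 scale in TalaR-M replicate 2. Without that library, 13.9% of all tested genes were called in TalaR-M against parental and 8.36% in TalaR-M against TalaR-DF. For the other alternatives the share of all tested genes called is not given. Their counts therefore do not tell how collagen genes moved relative to other genes.

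Signs turned for small changes. With the length and GC trend removed, COL27A1 became 0.038 in TalaR-M against parental, and COL5A3 became -0.0087 and COL17A1 0.080 between TalaR-M and TalaR-DF. Median ratio scaling gave 0.15 for COL7A1 and 0.15 for COL17A1 in that comparison. When a library was left out, TalaR-M against parental ranged from -1.07 to 0.13 for COL4A5 and from -0.72 to 0.13 for COL8A2, and TalaR-M against TalaR-DF from -0.68 to 0.52 for COL4A5, -0.10 to 0.30 for COL5A3, -0.19 to 0.26 for COL7A1, -0.13 to 1.20 for COL12A1 and -0.18 to 0.14 for COL17A1.

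A pseudocount of 8 CPM changed differences between chains the most, since it mutes chains near the floor. In TalaR-M against parental the change was then 6.79 for COL1A1 minus COL1A2, 0.29 for COL4A5 minus COL4A6, 3.60 for COL5A2 minus COL5A3, 1.95 for COL9A2 minus COL9A3 and, with its sign turned, -0.21 for COL6A1 minus COL6A2. In TalaR-DF against parental it was -0.41 for COL5A1 minus COL5A2, 3.29 for COL5A2 minus COL5A3, -0.17 for COL6A2 minus COL6A3, 0.22 for COL8A1 minus COL8A2, 1.99 for COL9A2 minus COL9A3 and, turned, -0.56 for COL6A1 minus COL6A2. In TalaR-M against TalaR-DF it was 5.47 for COL1A1 minus COL1A2, 0.46 for COL4A5 minus COL4A6, -0.40 for COL8A1 minus COL8A2 and, turned, 0.35 for COL6A1 minus COL6A2 and -0.037 for COL9A2 minus COL9A3. Left-out libraries gave -0.49 to 0.037 for COL6A1 minus COL6A2 (TalaR-M against TalaR-DF), -0.84 to 0.50 for COL6A2 minus COL6A3 and -0.72 to 0.13 for COL8A1 minus COL8A2 (both TalaR-M against parental).

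The replicate numbers did not pair the samples: correlations of deviations ranged from -0.42 to 0.22 over 9 pairs, with 2 over 0.1, and 1 of 9 libraries correlated best with its own number. With the replicate block, calls went from 7 to 6 in TalaR-M against parental and stayed at 7 and 3 in the other comparisons.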
